A study of Homo sapiens with 15 samples.

Results

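H3K27ac peaks that lay near a transcript start but shared no base with H3K4me3 were described in MDA-MB-231, a claudin-low, triple-negative human breast cancer cell line, and in its derivatives selected for metastasis. The parental line (Par) was compared with LM2, a sub-population with enhanced colonization of mouse lung, and BrM2, one with enhanced colonization of mouse brain. All 3 lines were grown as monolayers with 10% serum for 3 days, without any other treatment. ChIP-seq of each mark was done with 2 replicates per line, and each metastatic line is 1 selected derivative, so a difference from Par cannot be told apart from a trait of that derivative. Members were the H3K27ac consensus peaks shorter than 10000 bases that lay at most 2 kb from a protein-coding transcript start of GENCODE (0 bases where the start was inside the peak) and overlapped no H3K4me3 consensus peak. They numbered 2472 of 62195 H3K27ac peaks (3.97%), or 16.8% of the 14725 peaks under that length that lay near a start. The other 12253 of those overlapped H3K4me3.

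H3K4me3 is laid down around active promoters, most strongly at starts with many CG dinucleotides (CpG islands). H3K27ac, the product of the acetyltransferases p300 and CBP, marks active promoters and active enhancers. H3K27ac without H3K4me3 is the usual chromatin picture of an enhancer, and many genes carry alternative starts within their body that are used in other tissues. A lower count in a peak cannot tell apart fewer cells that carry the mark and less of the mark in each cell.

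The members' nearest starts were seldom the main starts of their genes. The nearest start was the canonical one of its gene for 536 members (21.7%), against 10734 (87.6%) of the promoter-near peaks with H3K4me3. Where several starts lay inside a peak, as at 245 members, a peak counted as canonical if any of them was. For 497 members (20.1%) every transcript at the nearest start or starts was annotated as incomplete at its 5′ end, against 149 (1.22%) of the peaks with H3K4me3. The true start of such a transcript is unknown. Peaks with H3K4me3 were longer (median 2405 against 1107.5 bases) and can hold more starts. These shares are thus not those of a single start and were not adjusted for length. The start lay inside the peak for 778 members (31.5%), while 894 peaks lay upstream of it and 800 downstream. By H3K4me3 at the gene, the members fell into 3 classes. In class A, 362 members (14.6%), an H3K4me3 peak lay within 2 kb of the same start, beside the H3K27ac peak. In class B, 1402 members (56.7%), there was none at that start but one at another protein-coding start of the gene. In class C, 708 members (28.6%), no start of the gene had H3K4me3. The nearest start was canonical for 26.0% of class A, 3.92% of class B and 54.7% of class C.

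The distance to H3K4me3 was wide. The gap to the nearest H3K4me3 peak had a median of 14346.5 bases and an interquartile range of 4216 to 37571 bases. Its median was 1098 bases in class A, 16439.5 in class B and 26299.5 in class C, and 475 members lay at least 50 kb from any H3K4me3 peak. The narrowest gap was 24 bases and 9 members had a gap of at most 100 bases, while 12 peaks left out for overlap shared at most 100 bases with H3K4me3, the least being 32. The longest member had 9949 bases, and the shortest peak without H3K4me3 left out for its length had 10000. Members carried 1991 gene names or sets of tied names, of which 352 had at least 2 members. As many as 6 members each belonged to ADGRG1 (an adhesion G protein-coupled receptor), ATP2C1 (a calcium pump of the Golgi), LIMS1 (an adaptor of integrin adhesions), MICAL2 (an actin-oxidizing enzyme), ARHGAP26 and SEPTIN9 (a septin of the cytoskeleton).

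Sequence at the nearest start was poor in CG. In the window from 250 bases before to 50 after the start, the median number of CG dinucleotides was 4 for the members, 28 for peaks with H3K4me3 and 19 over all 78515 protein-coding transcript starts. The ratio of observed to expected CG, in which 1 means as many as the base composition predicts, had a median of 0.269 for the members and 0.844 with H3K4me3. It was 0.524 in class A, 0.246 in class B and 0.255 in class C. A ratio under 0.4 was found at 1793 members (72.5%), 8.24% of the peaks with H3K4me3 and 31.6% of all starts. Class A was thus spread over the whole range, while classes B and C were mostly at the low end.

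**Figure D1:**
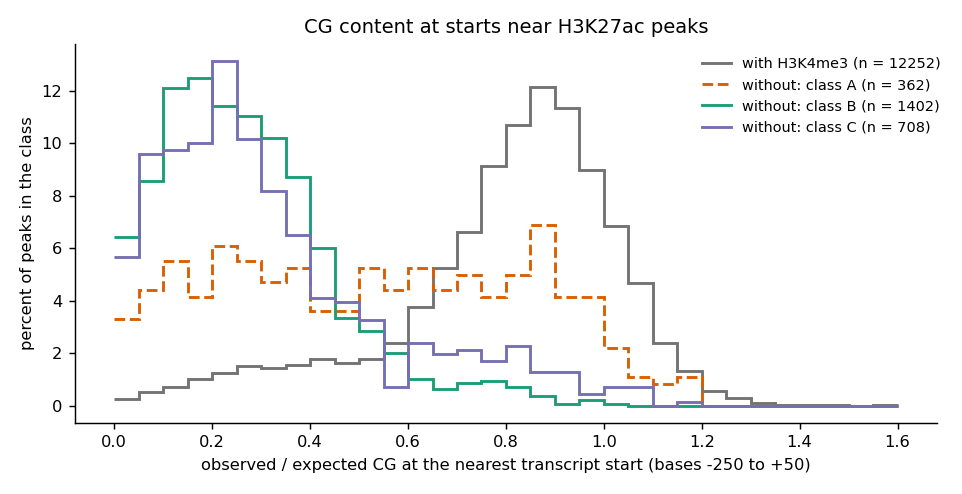
Percent of peaks (vertical axis) by the ratio of observed to expected CG at the nearest transcript start (horizontal axis) for promoter-near H3K27ac peaks with H3K4me3 and for the 3 classes without it. Classes B and C sit at the left, with medians of 0.246 and 0.255, peaks with H3K4me3 at the right, with a median of 0.844, and class A spans both.

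The letters before the start are shown for 5 members that had large differences between lines and the start inside the peak, to show how far the CG content of such starts ranged. They are the 250 bases before the start in GRCh37 (hg19), 5′ to 3′ on the strand of the gene, with CG dinucleotides and matches to TATAAA or TGANTCA on either strand in capitals. MSI2 held 0 CG, FYN 1, HSD17B3 3, FPR1 5 and ADAMTS12 22. The last 3 are canonical starts of genes without H3K4me3 at any start. HSD17B3 held a TGANTCA match at position -170 from the start and ADAMTS12 one at position -55.
MSI2 (chr17:55371796-55372045, + strand): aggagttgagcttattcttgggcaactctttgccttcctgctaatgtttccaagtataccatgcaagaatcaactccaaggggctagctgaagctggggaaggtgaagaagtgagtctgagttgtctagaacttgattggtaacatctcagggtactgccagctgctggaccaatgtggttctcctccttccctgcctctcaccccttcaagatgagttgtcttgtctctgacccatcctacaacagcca
FYN (chr6:112166148-112166397, - strand): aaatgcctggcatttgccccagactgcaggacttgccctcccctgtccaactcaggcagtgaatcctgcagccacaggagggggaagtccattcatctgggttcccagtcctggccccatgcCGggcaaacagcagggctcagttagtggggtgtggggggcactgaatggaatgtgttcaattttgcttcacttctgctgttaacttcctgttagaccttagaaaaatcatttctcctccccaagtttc
HSD17B3 (chr9:99064387-99064636, - strand): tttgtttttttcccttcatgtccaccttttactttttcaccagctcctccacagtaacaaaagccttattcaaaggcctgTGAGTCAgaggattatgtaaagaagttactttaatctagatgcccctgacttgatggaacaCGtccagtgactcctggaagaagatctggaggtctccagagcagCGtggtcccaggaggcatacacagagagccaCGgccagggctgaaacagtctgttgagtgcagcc
FPR1 (chr19:52254065-52254314, - strand): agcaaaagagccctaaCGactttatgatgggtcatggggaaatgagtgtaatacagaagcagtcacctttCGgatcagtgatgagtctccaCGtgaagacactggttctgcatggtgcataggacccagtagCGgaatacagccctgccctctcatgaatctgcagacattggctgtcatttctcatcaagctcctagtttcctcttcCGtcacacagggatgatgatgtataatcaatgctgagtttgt
ADAMTS12 (chr5:33892125-33892374, - strand): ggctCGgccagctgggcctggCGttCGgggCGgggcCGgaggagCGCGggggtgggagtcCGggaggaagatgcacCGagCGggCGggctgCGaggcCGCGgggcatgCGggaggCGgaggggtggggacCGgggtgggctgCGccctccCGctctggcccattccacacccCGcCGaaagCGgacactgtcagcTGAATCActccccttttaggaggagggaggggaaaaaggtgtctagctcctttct

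TATAAA, a core promoter element, occurred in the window of 418 members (16.9%), 4.33% of peaks with H3K4me3 and 9.53% of all starts. Among starts with a CG ratio under 0.4 the shares were 18.8% for the members, 18.7% for all starts and 10.9% for peaks with H3K4me3. The members' share was thus close to that of all CG-poor starts and above that of CG-poor starts with H3K4me3. TGANTCA, the site bound by AP-1 factors such as FOS and JUN, occurred at 315 members (12.7%), against 4.43% with H3K4me3 and 5.96% of all starts. With a CG ratio under 0.4 it occurred at 15.2% of the members, 10.9% of all starts and 16.3% of peaks with H3K4me3. Where the start lay inside the peak, 19.3% of the members held this site. The CCAAT box was found at 31.3% of the members, 31.8% with H3K4me3 and 33.4% of all starts. Both strands were searched, none of these motifs contains another, and a match does not show binding.

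Levels of H3K27ac were those of the distal peaks rather than of promoters with H3K4me3. The median level, as normalized count (the raw count over the size factor of its library) per kb of peak averaged over 6 libraries, was 15.9 for the members, 16.2 for the 40048 distal peaks without H3K4me3 and 32.5 for promoter-near peaks with H3K4me3. It was 16.6 in class A, 15.6 in class B and 16.0 in class C, so the interquartile range of 12.4 to 20.3 over all members held the 3 medians. Members were also short, with a median length of 1107.5 bases against 2405 with H3K4me3 and 1016 for distal peaks. A mean normalized count of at least 30 was reached by 762 members (30.8%) and by 83.9% of the peaks with H3K4me3.

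**Figure D2:**
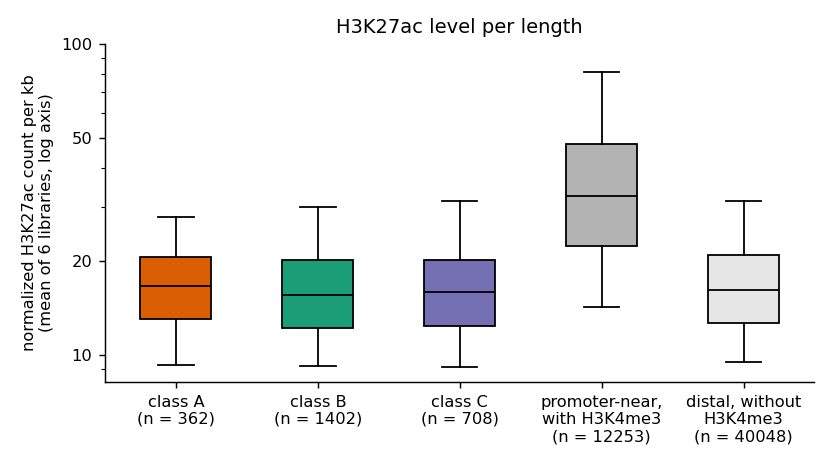
Normalized H3K27ac count per kb (mean of 6 libraries, log axis) for classes A, B and C, promoter-near peaks with H3K4me3 and distal peaks without it. Boxes span the quartiles with the median as a line and whiskers reach from the 5th to the 95th percentile of the peaks, and the 3 classes and the distal peaks have medians from 15.6 to 16.6 against 32.5 with H3K4me3.

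The members with the highest level per kb lay at genes with varied functions. At ZNF217, a transcription factor gene amplified in breast cancer, the peak chr20:52225213-52230891 over an internal start had normalized counts of 445 and 304 (Par), 411 and 258 (LM2) and 403 and 262 (BrM2), or 61.2 per kb on average. The lines overlapped there. FRMD4A, a scaffold of cell polarity, followed with 58.7 per kb, with counts of 385 and 367 (Par), 328 and 205 (LM2) and 551 and 513 (BrM2). It rose in BrM2 over LM2 by 0.99 ± 0.29 on the log2 scale (± is the standard error throughout, DESeq2, adjusted p = 0.0289). This call was lost without Par replicate 1 (adjusted p = 0.0508), LM2 replicate 2 (0.521), BrM2 replicate 1 (0.617) or BrM2 replicate 2 (0.285), and with size factors computed per chromosome (0.113). ERVH48-1, a gene from an endogenous retrovirus (58.5 per kb), SEC31A of the COPII vesicle coat (56.4), the IgM receptor gene FCMR (55.3), PDHX of the pyruvate dehydrogenase complex (53.2), the fatty acid transporter gene SLC27A1 (51.3) and PI16 (49.0) completed the 8 highest.

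The libraries held 1994996 (BrM2 replicate 2) to 6450028 (LM2 replicate 1) counts in H3K27ac peaks. The members took 2.09% ± 0.0436 of them in Par, 2.21% ± 0.192 in LM2 and 2.14% ± 0.0792 in BrM2 (SD, n = 2), so the totals overlapped between lines. From 1 to 46 members had no read in a library, the most in BrM2 replicate 2, the shallowest. As a check of the labelled breast epithelial type, H3K4me3 lay at a start of 12 of 15 mammary epithelial genes (none at KRT5, KRT14 and KRT17) and 7 of 9 mesenchymal genes (none at CDH2 and TWIST1). It lay at 1 of 5 leukocyte genes (CD14) and 1 of 5 endothelial genes (KDR), and was not found at PTPRC, CD3E, PECAM1 or VWF. Levels overlapped, with mean normalized H3K4me3 counts of 7.48 (TP63), 29.3 (CDH1) and 58.2 (PGR) against 61.0 (CD14) and 82.6 (KDR). The other mammary epithelial genes with H3K4me3 ranged from 119 (GATA3) to 564 (KRT19). The endothelial gene CDH5 had H3K27ac (114) without H3K4me3. A merged peak of any level was counted, so the check separated the types only in part. Same-numbered replicates of different lines deviated together in both marks, so counts with the replicate number as a block are given beside those without it.

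It was next asked how many members differed between the lines. In LM2 against Par, 45 members rose and 18 fell among 1773 that had an adjusted p (3.55%, against 3.63% of all H3K27ac peaks tested). In BrM2 against Par, 57 rose and 30 fell among 1905 (4.57%, against 5.29%), and in BrM2 against LM2, 17 were higher and 21 lower among 1655 (2.3%, against 2.94%). The members' shares were thus near or under those of all peaks (higher 2.72%, 3.62% and 1.71% of all peaks, lower 0.907%, 1.67% and 1.22%). Promoter-near peaks with H3K4me3 were called at 1.27%, 2.45% and 1.25%, and distal peaks at 4.38%, 5.96% and 3.36%. The other members had no adjusted p, mostly because their counts were below the filter of DESeq2.

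With the replicate block the calls were 62 higher and 28 lower in LM2 (5.24% of tested, against 5.44% of all peaks), 80 and 51 in BrM2 (7.39%, against 8.13%), and 39 and 39 between BrM2 and LM2 (5.47%, against 6.17%). In edgeR, which tested all 2472 members, 132 were called in LM2 (5.34%, against 5.14% of all peaks), 152 in BrM2 (6.15%, against 6.88%) and 89 between BrM2 and LM2 (3.6%, against 3.89%), and with the replicate block 309, 363 and 260 (12.5%, 14.7% and 10.5%, against 13.2%, 15.9% and 12.5%). Calls depended on single libraries. In LM2 against Par, 15 calls were made without Par replicate 1, 22 without Par replicate 2, 15 without LM2 replicate 1, 20 without LM2 replicate 2, 38 without BrM2 replicate 1 and 47 without BrM2 replicate 2. In BrM2 against Par the counts were 31, 25, 50, 61, 17 and 24 in the same order, and in BrM2 against LM2 they were 28, 30, 8, 13, 3 and 11. By class, BrM2 against Par called 8 of 228 tested members in class A, 40 of 1128 in class B and 39 of 549 in class C (7.10%). In LM2 these were 7 of 201, 33 of 1063 and 23 of 509, and in BrM2 against LM2 2 of 180, 19 of 994 and 17 of 481. The difference between classes was not tested.

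**Figure D3:**
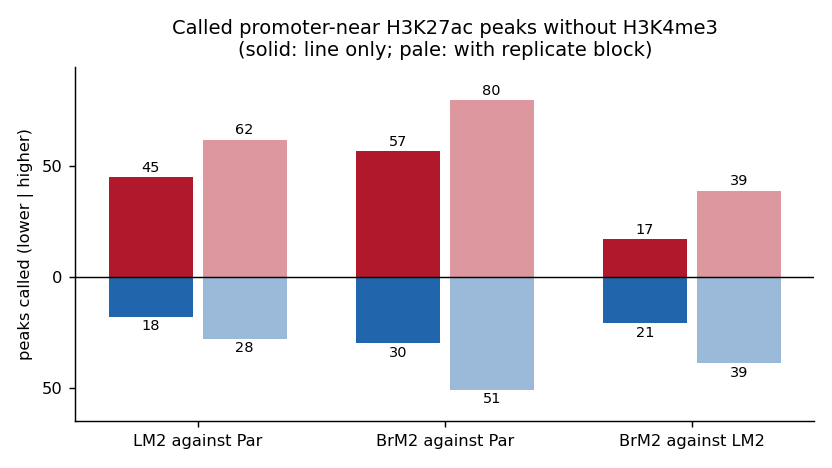
Number of members called higher (red, up) and lower (blue, down) in each comparison of lines by DESeq2 at an adjusted p under 0.05, without (solid) and with (pale) the replicate number as a block. Higher calls outnumber lower ones against Par in both fits, and between BrM2 and LM2 the counts are 17 and 21 without the block and 39 and 39 with it.

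Large rises and falls are given here for called members whose normalized counts averaged 30 or more over the 6 libraries and did not overlap between the lines compared, and larger log2 fold changes were fitted at members with fewer counts. A peak low in Par and high in 1 metastatic line alone passes this limit less easily than one high in both. MSI2, PLCB1, KIF6 and ADAP1 are described first, with values for both comparisons, which share the Par libraries. At MSI2, which encodes an RNA-binding regulator of stem cells, the peak chr17:55369156-55374504 covered an internal start in the body of the gene with the untranslated part of the exon there. Its normalized counts were 7.84 and 8.01 (Par), 130.1 and 154 (LM2) and 201 and 150.4 (BrM2). Par stood far below both lines, by 4.16 ± 0.48 in LM2 (adjusted p = 7.54e-15) and 4.48 ± 0.48 in BrM2 (adjusted p = 2.63e-17) on the log2 scale. Of the 34 other H3K27ac peaks within 500 kb, 25 had a positive log2 fold change in LM2 and 28 in BrM2. H3K4me3 at the main start of MSI2 had a log2 fold change of 0.75 ± 0.33 in LM2 and 0.48 ± 0.33 in BrM2. Neither passed the test in the fit without the replicate block (DESeq2, adjusted p = 0.389 and 0.771). That fit called fewer H3K4me3 peaks than the one with the block (2.51% against 14.4% of those tested in LM2).

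PLCB1 encodes a phospholipase C that acts below G protein-coupled receptors. Its peak chr20:8124811-8129552 lay in the gene body, 1420 bases upstream of a start annotated as incomplete. The normalized counts were 5.23 and 2.0 (Par), 92.0 and 107 (LM2) and 62.4 and 84.8 (BrM2). Both lines were above Par without overlap, by 4.75 ± 0.63 in LM2 (DESeq2, adjusted p = 8.81e-11) and 4.3 ± 0.64 in BrM2 (1.52e-08). The neighbourhood moved with it, since all 15 other peaks within 500 kb had a positive log2 fold change in LM2 and 13 in BrM2. H3K4me3 at another start of PLCB1 rose too, from a mean normalized count of 19.9 in Par to 331 in LM2 and 184 in BrM2 (log2 fold change 4.08 ± 0.45 and 3.24 ± 0.45, DESeq2, adjusted p = 4.55e-16 and 3.92e-10).

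KIF6, a kinesin gene, had a peak over an internal start (chr6:39396917-39399770) with normalized counts of 7.84 and 9.01 (Par), 94.2 and 106 (LM2) and 60.4 and 54.0 (BrM2). It rose by 3.58 ± 0.50 in LM2 (DESeq2, adjusted p = 7.09e-10) and 2.78 ± 0.52 in BrM2 (1.44e-05), and 12 of 16 neighbouring peaks within 500 kb were also positive in each. ADAP1 (chr7:967246-969313), a gene of an ARF GTPase-activating protein and the only class A member among the 4, had 6.97 and 6.01 (Par), 66.2 and 49.3 (LM2) and 36.1 and 46.3 (BrM2). Its rises were 3.16 ± 0.58 (DESeq2, adjusted p = 1.47e-05) and 2.64 ± 0.60 (0.000808), while its neighbours were nearly evenly split, with 21 of 37 positive in LM2. All 4 members kept both calls without each library in turn.

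SIRPB1 and FYN were also among the largest rises in LM2 above that count. SIRPB1, a signal-regulatory receptor of myeloid cells and a class C gene (chr20:1545014-1552296), had normalized counts of 34.8 and 40.1 (Par), 245 and 314 (LM2) and 60.4 and 67.5 (BrM2). LM2 was above both other lines, by 2.90 ± 0.34 over Par (DESeq2, adjusted p = 8.65e-14), and BrM2 was lower than LM2 by 2.13 ± 0.34 (3.37e-07). As paralogs of SIRPB1 are close in sequence, reads there may be hard to place. FYN, a kinase of the SRC family, had a peak over an internal start (chr6:112161717-112166604) with 11.3 and 18 (Par), 88.6 and 108 (LM2) and 40.0 and 40.5 (BrM2). It rose by 2.75 ± 0.46 in LM2 (DESeq2, adjusted p = 9.32e-07). H3K4me3 at its main start had a log2 fold change of 0.28 ± 0.35, not past the test in the fit without the replicate block. These calls, too, were kept without each library.

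ENG and ANKFN1 were among the largest rises in BrM2 above that count. ENG, which encodes the TGF-beta co-receptor endoglin, had a peak in its body (chr9:130606560-130608383) with 6.10 and 17.0 (Par), 38.7 and 26.6 (LM2) and 65.3 and 73.3 (BrM2). Its rise was 2.60 ± 0.55 (DESeq2, adjusted p = 0.000221), and without Par replicate 1 the adjusted p was 0.0715. The surroundings went the other way, as 57 of 65 peaks within 500 kb had a negative log2 fold change. ANKFN1 (chr17:54252934-54255325, class C) had 11.3 and 9.01 (Par), 19.6 and 22.7 (LM2) and 47.8 and 77.1 (BrM2), a rise of 2.59 ± 0.56 (DESeq2, adjusted p = 0.00035), lost without BrM2 replicate 2 (0.12).

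**Figure D4:**
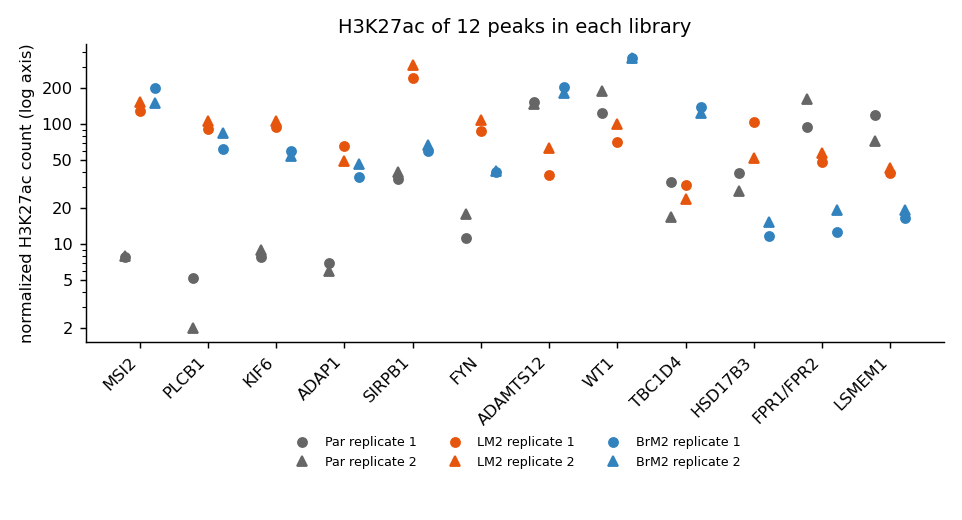
Normalized H3K27ac count (log axis) of 12 named peaks in each of the 6 libraries, with a circle for replicate 1 and a triangle for replicate 2. MSI2, PLCB1, KIF6 and ADAP1 have counts of at most 9.01 in Par and at least 36.1 in LM2 and BrM2, SIRPB1 and FYN are highest in LM2, and FPR1/FPR2 and LSMEM1 are lowest in BrM2.

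Falls in LM2 were smaller and depended more on single libraries. ADAMTS12, a secreted metalloprotease of the matrix, had the peak over its canonical start (chr5:33891359-33896895, class C, covering the first exon). It had 153 and 147 (Par), 37.6 and 63.1 (LM2) and 205 and 183 (BrM2). LM2 lay below both other lines. The fall from Par was 1.6 ± 0.34 on the log2 scale (DESeq2, adjusted p = 0.00044, and 0.223 without LM2 replicate 1), and BrM2 was higher than LM2 by 1.98 ± 0.35 (7.57e-06), a call kept without each library. Of 38 neighbouring peaks, 35 were negative in LM2 against Par and 36 in BrM2 against Par. In BrM2 ADAMTS12 itself had a log2 fold change of 0.37 ± 0.33 over Par (DESeq2, adjusted p = 0.690).

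LPP, a focal adhesion protein gene, fell in LM2 from 156 and 147 to 69.0 and 39.4 (log2 fold change -1.47 ± 0.40, DESeq2, adjusted p = 0.013). The call was lost without Par replicate 1 (0.242), Par replicate 2 (0.178) or LM2 replicate 2 (0.382). PLEKHA7 of adherens junctions (log2 fold change -1.67 ± 0.52), the hyaluronan synthase gene HAS1 (-1.54 ± 0.48) and DPYSL3, a regulator of neuronal growth cones (-1.53 ± 0.48), each lost the call without any 1 of the 6 libraries, with adjusted p up to 0.743, 0.793 and 0.719. CSF2RA, the GM-CSF receptor gene, went from 117 and 85.1 to 50.5 and 20.7 (-1.47 ± 0.44, adjusted p = 0.029). It lost the call with size factors computed per chromosome (adjusted p = 0.242) and in 5 of the 6 fits without a library, and 15 of 16 neighbours were negative.

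In BrM2 a large fall lay between FPR1 and FPR2, which encode formyl peptide receptors of phagocytes. The peak chr19:52253112-52255870, at the canonical start of FPR1, had 94.1 and 161 (Par), 48.2 and 58.2 (LM2) and 12.7 and 19.3 (BrM2). The 3 lines did not overlap. BrM2 was lower than Par by 3.05 ± 0.49 on the log2 scale (DESeq2, adjusted p = 2.04e-07), with or without each library. It was also lower than LM2, by 1.79 ± 0.50 (0.0188), a call lost without either LM2 or either BrM2 library (0.168, 0.261, 0.769 and 0.124). HAS1, whose start lies near FPR1 on the same chromosome, fell by 2.02 ± 0.53 (DESeq2, adjusted p = 0.00569), lost without Par replicate 2 (0.278) or BrM2 replicate 1 (0.487). Around both, 26 of 29 peaks within 500 kb were negative in BrM2.

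LSMEM1, a class C gene (chr7:112121399-112125604), had 118 and 72.1 (Par), 39.3 and 43.4 (LM2) and 16.6 and 19.3 (BrM2), a fall of 2.43 ± 0.49 (DESeq2, adjusted p = 8.55e-05) that was lost without Par replicate 1 (0.0658) or BrM2 replicate 1 (0.0714). TMEM139 had 60.1 and 50.1 in Par against 10.7 and 19.3 in BrM2 (log2 fold change -1.95 ± 0.54, adjusted p = 0.0111). It lost the call without either Par library (0.236 and 0.107) or either BrM2 library (0.53 and 0.0516). C8orf74 (chr8:10527450-10531638) and CTSB (chr8:11709960-11713266), which encodes the lysosomal protease cathepsin B, both lie on chromosome 8, farther apart than 500 kb. C8orf74 had 56.6 and 111 in Par and 19.5 and 13.5 in BrM2 (-2.3 ± 0.51, adjusted p = 0.000474), lost without Par replicate 2 (0.123) or BrM2 replicate 1 (0.0536). CTSB had 71.4 and 75.1 against 24.4 and 9.64 (-2.01 ± 0.52, adjusted p = 0.00447), lost without Par replicate 1 (0.0802), Par replicate 2 (0.0982) or BrM2 replicate 2 (0.198). Around C8orf74, 29 of 31 peaks within 500 kb had a negative log2 fold change in BrM2, with a median of -1.29. The part of these neighbourhoods in the results was not tested.

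In the direct comparison of the metastatic lines, WT1, SIRPB1, ADAMTS12 and TBC1D4 had the smallest adjusted p among the named members. WT1 encodes a zinc finger transcription factor of kidney and gonad development. The peak chr11:32438992-32446296 lay within the gene over a coding exon at a start annotated as incomplete, and no start of WT1 had H3K4me3. It had 125 and 190.3 (Par), 71.8 and 102 (LM2) and 356 and 361 (BrM2). BrM2 was above both other lines. It exceeded LM2 by 2.06 ± 0.32 on the log2 scale (DESeq2, adjusted p = 2.3e-07), kept without each library, and Par by 1.19 ± 0.32 (0.00768), lost without Par replicate 1 (0.251), BrM2 replicate 1 (0.218) or BrM2 replicate 2 (0.161). Neighbouring peaks were split, 12 of 26 being positive over LM2.

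TBC1D4, a GTPase-activating protein that controls glucose transporter traffic, had a peak over a coding exon at a start annotated as incomplete (chr13:75912332-75916344). It had 33.1 and 17.0 (Par), 31.4 and 23.7 (LM2) and 139 and 123.4 (BrM2). Par and LM2 overlapped and BrM2 lay above both, by 2.38 ± 0.43 over Par (DESeq2, adjusted p = 8.57e-06) and 2.24 ± 0.42 over LM2 (4.21e-05), the latter lost without BrM2 replicate 1 (0.131). H3K4me3 at another start of TBC1D4 did not pass the test in either comparison in the fit without the replicate block (log2 fold change -0.22 ± 0.41 and -0.66 ± 0.41).

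HSD17B3, the testosterone-forming dehydrogenase of the testis, differed in the other direction. Its peak at the canonical start (chr9:99061792-99064922, class C) had 39.2 and 28 (Par), 104 and 52.2 (LM2) and 11.7 and 15.4 (BrM2). LM2 was highest and BrM2 lowest without overlap, a difference of -2.57 ± 0.56 (DESeq2, adjusted p = 0.000652), lost without LM2 replicate 1 (0.314) or BrM2 replicate 1 (0.299). The ciliary transcription factor gene RFX2 was also lower in BrM2 than LM2, at 16.6 and 15.4 against 60.6 and 68.0 (-1.99 ± 0.51, adjusted p = 0.00693). It was not called without either LM2 library (0.191 and 0.222) or either BrM2 library (0.453 and 0.183). CIDEA, of lipid droplets, was higher in BrM2 at 149 and 90.6 against 35.3 and 39.4 (1.70 ± 0.41, adjusted p = 0.00295), lost without LM2 replicate 1 (0.225), LM2 replicate 2 (0.0867) or BrM2 replicate 1 (0.736) and with size factors computed per chromosome (0.0808). The nucleoside transporter gene SLC28A2 (1.87 ± 0.46, adjusted p = 0.00446) and the WNT ligand gene WNT7B (1.6 ± 0.43, adjusted p = 0.0123) were higher in BrM2 as well. SLC28A2 lost the call without either LM2 library (0.113 and 0.197) or either BrM2 library (0.623 and 0.066), and WNT7B without LM2 replicate 1 (0.544), BrM2 replicate 1 (0.265) or BrM2 replicate 2 (0.474).

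Genes were grouped by function in 14 lists of symbols, which do not hold every gene of a function. Of the metastasis signature genes, 9 members at 5 genes, 8 were tested and 1 rose in each metastatic line, at SERPINB2. SERPINB2 encodes PAI-2, an inhibitor of urokinase. Its peak, upstream of the start (chr18:61534674-61538840, class C), had 27 and 16 (Par), 101 and 121 (LM2) and 112 and 109.9 (BrM2). Both lines were above Par, by 2.35 ± 0.40 in LM2 (DESeq2, adjusted p = 1.9e-06) and 2.36 ± 0.41 in BrM2 (2.48e-06), with and without each library. All 12 neighbouring peaks were positive in BrM2 and 8 in LM2. The median log2 fold change of the 8 tested was 0.51 in LM2 and 0.12 in BrM2, against -0.04 and -0.01 over all H3K27ac peaks.

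Among the proteases and serpins, 16 of 22 members were tested against Par, of which 2 rose in LM2 and 2 rose and 2 fell in BrM2. Beside SERPINB2, the rises were at SERPINA9, with 0.871 and 5.01 (Par), 19.1 and 51.3 (LM2) and 14.6 and 25.1 (BrM2), so low in Par that the size is imprecise (3.61 ± 0.86 and 2.76 ± 0.89, adjusted p = 0.00238 and 0.0399). Neither call of SERPINA9 held throughout, the first being lost without Par replicate 1 (0.181), Par replicate 2 (0.0705) or LM2 replicate 2 (0.334) and the second without any 1 of the 6 libraries. The falls in BrM2 were at CTSB and SERPINA3, which encodes the acute-phase antichymotrypsin.

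Of the matrix and integrin genes, 33 of 43 members were tested in LM2, with 1 higher, ITGAE, and 1 lower, ADAMTS12. The alpha-E integrin gene ITGAE had 13.9 and 12 (Par), 48.2 and 55.2 (LM2) and 39.0 and 40.5 (BrM2), in a peak that covers an exon of NCBP3. Its rise was 1.99 ± 0.50 in LM2 (DESeq2, adjusted p = 0.00507), lost without either Par library (0.111 and 0.156) or either LM2 library (0.183 and 0.193), and 1.61 ± 0.52 in BrM2 (0.0431), lost without any 1 library. Between BrM2 and LM2, ADAMTS12 and TNXB were higher and FBLN1 lower.

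Of the ion channel genes, 21 of 27 members were tested in LM2 and 2 rose, at the cold-sensing channel gene TRPM8 and the calcium-activated potassium channel gene KCNMA1. TRPM8 had 13.9 and 14.0 in Par and 66.8 and 55.2 in LM2 (2.13 ± 0.48, DESeq2, adjusted p = 0.00114), lost without Par replicate 1 (0.0766), Par replicate 2 (0.0604) or LM2 replicate 1 (0.218). KCNMA1, at its canonical and CG-rich start, had 74.9 and 56.1 in Par and 171 and 134 in LM2 (1.22 ± 0.35, adjusted p = 0.0189). Its call was lost without each library but BrM2 replicate 2, with adjusted p from 0.0517 to 0.627. In BrM2, 1 of 23 tested rose, again TRPM8, with 44.8 and 40.5 (1.62 ± 0.51, DESeq2, adjusted p = 0.0316), a call lost without any 1 of the 6 libraries (up to 0.454) and with size factors computed per chromosome (0.100). The BrM2 and LM2 values of TRPM8 did not pass the test of their difference (-0.51 ± 0.45, adjusted p = 0.728).

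In the other lists the calls were few. Of the solute carriers, 1 of 44 tested rose in LM2 (SLC22A23) and 3 of 45 in BrM2 (SLC27A1, SLCO1A2 and SLC8B1), with none lower. Of the small GTPase regulators, 57 were tested in LM2 with 1 higher (DENND1C), and 59 in BrM2 with TBC1D4 higher and RAB30 lower, in a list that does not hold ADAP1. Among the receptor tyrosine kinase genes, MET fell in LM2. The MET peak, within the gene over a coding exon, had 287 and 163 in Par and 103 and 88.7 in LM2 (-1.23 ± 0.35, adjusted p = 0.0183). It was not called with size factors computed per chromosome (0.121) or without Par replicate 1 (0.621), LM2 replicate 1 (0.249) or LM2 replicate 2 (0.299), and 61 of 74 neighbouring peaks were negative. Of the epithelial keratins and junctions, 9 of 16 were tested in LM2 and CLDN2 fell (-1.10 ± 0.32, adjusted p = 0.0212), a call lost with size factors computed per chromosome (0.276) and in 5 of the 6 fits without a library. Of 44 members tested in BrM2 at transcription factors of lineage families, a list without WT1, ETV6 fell.

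No member at a listed gene of the chemokines, cytokines and receptors (27 tested in LM2, 28 in BrM2, CSF2RA not being listed), the cadherins (5 and 5) or the ZNF genes (15 and 15) was called by DESeq2 against Par. None of the axon guidance genes (13 and 14) was either, and SEMA4B was lower in BrM2 than in LM2. Of the listed genes of the TGF-beta and WNT pathways (12 and 12), which do not include ENG, the same held, with WNT7B called between the metastatic lines.

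The remaining members named from the lists had smaller or less steady differences. SERPINA3 had 97.6 and 95.2 (Par), 159.9 and 95.6 (LM2) and 42.9 and 36.6 (BrM2), and was lower in BrM2 than Par by 1.26 ± 0.40 and than LM2 by 1.68 ± 0.40 (DESeq2, adjusted p = 0.0382 and 0.00281). ETV6, an ETS repressor gene, had 117 and 101 (Par), 69.0 and 96.6 (LM2) and 22.4 and 44.3 (BrM2), and its fall in BrM2 was 1.77 ± 0.43 (0.00215). RAB30, of Golgi traffic, had 34.8 and 43.1 (Par), 21.9 and 16.8 (LM2) and 7.80 and 7.71 (BrM2), a fall of 2.33 ± 0.66 (0.0145). At all 3 genes the BrM2 counts were the lowest, but ETV6 and RAB30 were not called between BrM2 and LM2 (DESeq2, adjusted p = 0.0505 and 0.375).

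Of the solute carriers that rose in BrM2, SLC27A1 had 266 and 229 (Par), 611 and 293 (LM2) and 627 and 474 (BrM2) (1.16 ± 0.34, adjusted p = 0.0204). SLCO1A2, an organic anion transporter gene, had 23.5 and 9.01 (Par), 15.1 and 23.7 (LM2) and 83.8 and 40.5 (BrM2) (1.95 ± 0.58, adjusted p = 0.0213). SLC8B1, the mitochondrial sodium-calcium exchanger gene, had 23.5 and 35.1 (Par), 84.1 and 50.3 (LM2) and 84.8 and 67.5 (BrM2) (1.40 ± 0.45, adjusted p = 0.039). By counts, both metastatic lines lay above Par for SLC27A1 and SLC8B1, though neither was called in LM2 (DESeq2, adjusted p = 0.162 and 0.107). For SLCO1A2 the BrM2 counts were the highest, but BrM2 was not called against LM2 (1.73 ± 0.56, adjusted p = 0.0647). The RAB activator gene DENND1C had 4.36 and 4.01 (Par), 23 and 33.5 (LM2) and 6.82 and 9.64 (BrM2). It rose in LM2 over Par (2.74 ± 0.78, adjusted p = 0.019) and was not called between BrM2 and LM2 (-1.81 ± 0.75, 0.209).

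Between the metastatic lines, TNXB, a tenascin gene whose peak also covers exons of ATF6B, had 86.4 and 109 in LM2 and 183 and 243 in BrM2 (1.12 ± 0.32, DESeq2, adjusted p = 0.0217). FBLN1, which encodes the matrix protein fibulin-1, had 20.8 and 43.4 in LM2 and 5.85 and 1.93 in BrM2 (-2.89 ± 0.89, adjusted p = 0.0445). SEMA4B, a semaphorin gene, had 323 and 180.4 in LM2 and 117 and 108 in BrM2 (-1.16 ± 0.35, adjusted p = 0.0324), and all 66 neighbouring peaks were negative. The potassium channel subunit gene KCNE4 had 25.2 and 23.7 in LM2 and 2.92 and 3.86 in BrM2 (-2.90 ± 0.88, adjusted p = 0.0377). Each of the calls from SERPINA3 to KCNE4 was lost or had no adjusted p in at least 2 of the 6 fits that leave out a library. ETV6 kept its call in 4 of these fits, and the adjusted p reached 0.799 (KCNE4 without BrM2 replicate 1). With size factors computed per chromosome, the adjusted p was 0.215 for SEMA4B, 0.0704 for SLC27A1, 0.0563 for SERPINA3 in BrM2 against Par and 0.0527 for FBLN1.

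Finally, H3K4me3 at the members' genes, a mark the rule used only at the peak itself, was set beside H3K27ac. For 1766 members the gene had an H3K4me3 peak within 2 kb of a protein-coding start, at 1369 distinct peaks. Where a gene had several, the peak with the highest mean normalized count was taken. Genes were matched here by symbol, which adds 2 class C members at MKKS, a symbol that several gene identifiers share. Such a peak was present for 40 members called in LM2, 48 called in BrM2 and 21 called between the metastatic lines. H3K4me3 was called at 3, 2 and 1 of them, in the same direction as H3K27ac each time (background 2.51%, 3.61% and 3.18% of all H3K4me3 peaks tested). With the replicate block, H3K4me3 was called beside 24 of 55, 24 of 75 and 18 of 48 called members, in the same direction at 22, 19 and 15, against backgrounds of 14.4%, 17.7% and 22%. The peaks beside members were the highest of their genes and can be shared by members, while the backgrounds hold H3K4me3 peaks of every level. These shares are thus not of like sets, and their difference was not tested.

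The members with both calls were at IGSF3, PLCB1 and SLC22A23 in LM2, at PLCB1 and ENG in BrM2, and at SLC22A23 between BrM2 and LM2. At ENG, H3K4me3 at chr9:130615596-130617099 went from a mean normalized count of 2.31 in Par to 127 in BrM2 (log2 fold change 5.36 ± 0.75, DESeq2, adjusted p = 4.13e-10). It rose in LM2 as well, to 86.5 (4.81 ± 0.75, adjusted p = 1.01e-07), where the H3K27ac rise was not called (1.54 ± 0.55, 0.103). Between BrM2 and LM2 neither H3K4me3 (0.55 ± 0.44, adjusted p = 0.814) nor H3K27ac (1.07 ± 0.49, 0.288) was called. The H3K4me3 peak nearest to the H3K27ac peak at ENG, at a gap of 4889 bases, was a different one. At SLC22A23, an organic ion transporter gene, H3K27ac was 3.48 and 9.01 (Par), 43.2 and 52.2 (LM2) and 7.80 and 7.71 (BrM2), while H3K4me3 averaged 328, 924 and 424. LM2 was highest in both marks. The H3K27ac calls there were lost without LM2 replicate 1 or 2 (0.123 and 0.159 over Par, 0.239 and 0.325 over BrM2), and also without Par replicate 1 over Par (0.145) or either BrM2 library over BrM2 (0.536 and 0.192). Over all called members with an H3K4me3 peak, the median H3K4me3 log2 fold change was 0.28 beside higher and -0.33 beside lower members in LM2, 0.17 and -0.58 in BrM2, and 0.11 and -0.64 for BrM2 against LM2.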

How the data were processed

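The libraries were processed by the authors, who aligned reads to hg19 with Bowtie2 and called broad consensus peaks with MACS2 on the merged reads of each mark. The deposited values are raw counts of reads in each peak, without normalization, from featureCounts run by the authors with a 3′ extension of 150 bases. As peaks were called on merged reads, absence of H3K4me3 means absence of a merged peak. Of the deposited columns, 0 matched no sample. Input was not used here. The labels give 10 min of fixation and the methods of the study another time.

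Peaks were annotated with GENCODE release 44 on GRCh37. Differences were tested with the DESeq2 (1.42.0) Wald test on the 6 libraries of a mark, with cell line as the only term, 3 residual degrees of freedom, Benjamini-Hochberg adjustment over all peaks and a threshold of 0.05. Size factors were medians of ratios. The labels do not say that replicates are separate cultures, though the methods call them biological. Named members were the 6 largest and 6 smallest log2 fold changes per comparison among called members whose normalized counts averaged 30 or more and did not overlap between the lines compared, the 8 highest per kb, and up to 3 called members per list and comparison. One of the members so named is not reported here. The members and lists were chosen with earlier results of these data known. Replicate numbers come from the titles. Deviations of same-numbered libraries correlated with r from 0.407 to 0.607 (H3K27ac) and from 0.788 to 0.843 (H3K4me3). Alternatives were edgeR 4.0.16, a replicate block, other size factors, a count minimum of 10, fits with only the lines compared, fits without 1 library, and other member rules. The fit without the block was also run on simulated independent counts with a fixed dispersion and no shared replicate deviations. It therefore says nothing about the correlated deviations of these libraries.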

Additional observations from a re-analysis of the deposited data

Results flagged for a closer look

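Of the 38 members called between BrM2 and LM2 (DESeq2, adjusted p under 0.05), 25 had LM2 and BrM2 on opposite sides of Par. The matching share over all H3K27ac peaks is not given here, and choosing members by this difference favours Par lying between the lines. The 12 of them at which LM2 or BrM2 was also called against Par are given here, and none was called against Par in both lines. At 6 of these BrM2 was higher than LM2 and called above Par, while LM2 was not called against Par. WT1 differed by 2.06 ± 0.32 (log2, DESeq2, adjusted p = 2.3e-07) and TANK, an adaptor of innate immune signalling, by 3.07 ± 0.63 (0.000206). SRC, a tyrosine kinase, differed by 1.51 ± 0.37 (0.00452), SPTLC2, of sphingolipid synthesis, by 1.21 ± 0.27 (0.00115) and CCDC201 by 1.34 ± 0.30 (0.00129). OR4N2, an odorant receptor gene of a family with near-identical copies, differed by 6.33 ± 1.18 (2.95e-05). Its normalized counts were 0.871 and 1.0 (Par), 0.561 and 0.986 (LM2) and 76 and 38.6 (BrM2), so the size rests on single reads in Par and LM2 and is no measure of a fold. ADAMTS12 was higher in BrM2 than in LM2 by 1.98 (7.57e-06) and was called against Par in LM2, where it fell.

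At 5 members BrM2 was lower than LM2. TMCC2 differed by -1.95 ± 0.49 (DESeq2, adjusted p = 0.00577), SERPINA3 by -1.68 ± 0.40 (0.00281), RB1CC1, an autophagy gene, by -1.67 ± 0.42 (0.00567) and WDR13 by -1.51 ± 0.40 (0.00948). These 4 were called below Par in BrM2 and not called against Par in LM2. Both calls of TMCC2, over LM2 and over Par, were lost in fits that leave out a library. ANPEP, an aminopeptidase gene, differed by -2.27 ± 0.66 (0.0251), with 7.84 and 20 (Par), 56.1 and 46.3 (LM2) and 5.85 and 17.4 (BrM2). It was called against Par in LM2. Since LM2 and BrM2 share the Par libraries, the side of Par on which each lies was not tested apart from these contrasts.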

How the results depend on the processing

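Counts of calls moved with the test and the libraries, and none of the 69 calls of named members reversed in direction under the alternatives run. In edgeR (TMM) the members called higher and lower were 88 and 44 in LM2 against Par, 86 and 66 in BrM2 against Par, and 35 and 54 in BrM2 against LM2. With the replicate block in DESeq2 the higher and lower counts were 62 and 28, 80 and 51, and 39 and 39 for the 3 comparisons, and in edgeR with the replicate block they were 183 and 126, 188 and 175, and 116 and 144. With a minimum of 10 counts in every library, which leaves fewer peaks to test, they were 29 and 10, 37 and 22, and 11 and 16. With only the 2 lines compared in the fit, 37 were higher in BrM2 against Par. With size factors by TMM or per chromosome, each count stayed within 1.5 times. The number of members was 1599 with starts of basic transcripts alone, with 26, 34 and 10 higher calls, and 1621 with a distance of 1 kb. Members whose gene had both marks called in the same direction, 3, 2 and 1 without the block, were 22, 19 and 15 with the replicate block, 78, 91 and 72 with edgeR and the replicate block, 4 in BrM2 against Par and 0 in BrM2 against LM2 with edgeR, and 0 in each comparison with the minimum of 10 counts (DESeq2). Call rates over all H3K27ac peaks rose too, from 3.63%, 5.29% and 2.94% without the block to 13.2%, 15.9% and 12.5% with edgeR and the block. The share of all H3K4me3 peaks called by edgeR is not given here, so these joint counts are no result about the members.

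Without 1 library, higher and lower calls ranged from 13 to 37 and from 2 to 10 in LM2 against Par, from 14 to 36 and from 3 to 25 in BrM2 against Par, and from 2 to 16 and from 1 to 14 in BrM2 against LM2. Joint calls of both marks ranged from 1 to 3, from 1 to 2 and from 0 to 1. All 69 calls of named members were kept in edgeR, with the replicate block in either tool and with TMM size factors, 58 with size factors per chromosome, and 57 with only the lines compared. From 27 (without BrM2 replicate 1) to 38 were kept without a library. Depth limits the members, since 762 of 2472 reached a mean normalized count of 30, and with 2 replicates per line a missed threshold does not show that lines were alike. The causes of these shifts were not tested.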
